A study of Drosophila melanogaster with 7 samples.

Results

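The replication-dependent histone genes of *Drosophila melanogaster* form a tandem cluster on chromosome arm 2L, and the peaks described here are those of the zinc-finger protein CLAMP over that cluster. Members were the genes on 2L of the Release 6 RefSeq gene table, the assembly behind the dm6 build, whose symbols begin with His1, His2A, His2B, His3 or His4 followed by a CG number. The rule found 111 genes among the 17684 of the main chromosome arms, scaffolds left out. They were 23 His1, 23 His2B, 20 His2A, 22 His4 and 23 His3 genes, all annotated as protein-coding. The assay was CUT&RUN: a nuclease tethered to an antibody cuts the DNA around the antibody's target, and the freed fragments are sequenced. The libraries were 3 with anti-CLAMP antibody from S2, a male embryonic cell line, 2 with anti-CLAMP from Kc, a female embryonic cell line, and 1 with control rabbit IgG from each line. No cells were treated, and nothing in the labels says that replicates came from separate cultures, so their spread may be technical. The deposited lists held 5535 to 9832 peaks on the main arms with CLAMP, 1165 with S2 IgG and 8615 with Kc IgG. The numbers of reads are not in the lists, so the depth is unknown. The library used as S2 replicate 3 carries one internal sample number in its title and another in the name of its list. It also had the shortest CLAMP list, and each tested comparison between the lines is given with and without it.

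Replication-dependent histone genes supply the histones that package newly made DNA in S phase. Their transcripts end in a stem-loop in place of a poly(A) tail and are made in a nuclear compartment, the histone locus body. In flies every complete repeat unit carries the genes of the linker histone, His1, and of the core histones, His2A, His2B, His3 and His4. His3 and His4 are transcribed away from each other from a shared promoter, as are His2A and His2B, while His1 has a promoter of its own. CLAMP is known to bind GA repeats in the His3-His4 promoter and to take part in the histone locus body. Fly genomes carry more copies of the unit than the assembly resolves.

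In the assembly the members ran from 2L 21416953 to 21541681, a span of 124.7 kb. Counting a unit from each His1 gene gave 23 units, of which 19 held all 5 gene types. Along 2L the order within a unit was His1, His2B, His2A, His4, His3. Neighbouring His1 genes lay 4843 to 5151 bp apart, except between units 5 and 6, where the distance was 14041 bp. In units 1, 3 and 5 a histone pseudogene stood in the place of His2A, and in unit 23 the pseudogene His-Psi:CR33867 stood in the place of His4. Between His4 and His3 lay 181 to 188 bp in 18 of 22 annotated pairs and 25 bp in the other 4 pairs, where the annotated His4 gene is longer. The members were short, with a median length of 529 bp against 1710 bp for all genes on the main arms. Because the genes stand close together, 1 peak could be counted for several members. How reads that match several near-identical copies were placed was not given by any source used here, and the number of copies in S2 and Kc was not measured. Values of a single copy are therefore uncertain, and the copies are not replicates of one another.

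Most histone genes held a CLAMP peak in 4 of the 5 CLAMP libraries, and in each of the 5 the share lay above that of genes in general. A gene held a peak if a peak interval shared at least 1 bp with it or with its flanks of 500 bp. In S2 CLAMP replicates 1 to 3, 74, 110 and 53 of the 111 members held one (66.7%, 99.1% and 47.7%). The shares over all genes of the main arms were 33.1%, 23.9% and 15.4% in the same libraries. In Kc CLAMP replicates 1 and 2, 111 and 97 members held one, against 26.0% and 25.9% of all genes. S2 replicate 3 had the lowest count, and S2 replicate 2 lay beside the Kc libraries. With IgG, 13 members held a peak in S2 (11.7%, against 3.47% of all genes) and 81 in Kc (73.0%, against 20.2% of all genes). The CLAMP counts thus lay above the IgG count of the same line in every library, with the smallest gap between Kc CLAMP replicate 2 and Kc IgG. With 1 IgG library per line these differences could not be tested. They are also not adjusted for list length, which was 1165 peaks with S2 IgG against 5535 to 8904 in S2 CLAMP. In both IgG libraries the members' share lay above that of all genes as well, so that this trait was not particular to CLAMP. No member was without a CLAMP peak, whereas 51.8% of all genes were. All 5 CLAMP libraries held a peak at 49 members, against 6.28% of all genes. All 3 S2 CLAMP libraries did so at 50 members, against 8.41% of all genes, and both Kc CLAMP libraries at 97, against 18.3%. Without S2 replicate 3 the count for all remaining CLAMP libraries was 73.

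**Figure D1:**
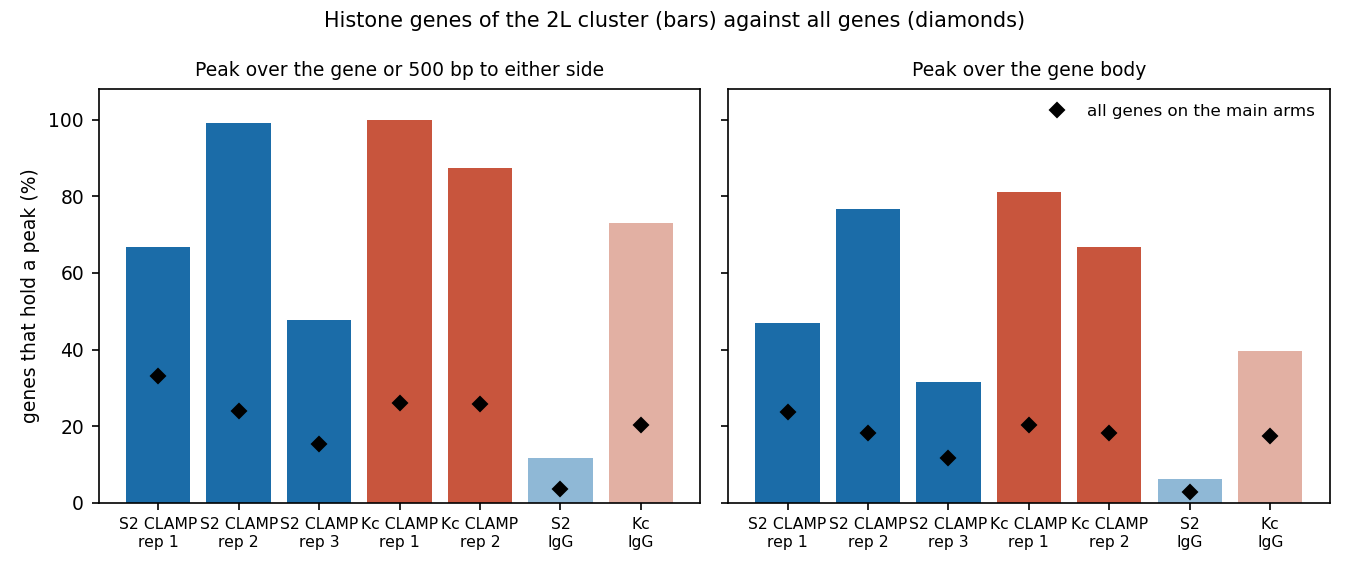
Share of the 111 histone genes that held a peak in each library (bars, in %), by the gene with 500 bp to either side on the left and by the gene body on the right, with the share of all genes of the main arms as diamonds. Every bar lies above its diamond, and the Kc IgG bar on the left stands at 73.0%.

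Counted over the gene body alone, 52, 85 and 35 members held a peak in the S2 CLAMP libraries and 90 and 74 in the Kc CLAMP libraries. The IgG libraries had 7 such members in S2 and 44 in Kc. Over all genes, the shares with a peak over the body were 23.8%, 18.3% and 11.7% in S2 CLAMP, 20.3% and 18.2% in Kc CLAMP, 2.87% with S2 IgG and 17.5% with Kc IgG. By this stricter count 25 members were held in all 5 CLAMP libraries, against 4.48% of all genes. Another 15 members, all of them His1, were held in none, against 62.5% of all genes. Both Kc and no S2 CLAMP library held 5 members by the body (1.13% of all genes), and all 3 S2 and no Kc library held 0 (0.786% of all genes). A summit, the point of highest signal of a peak, lay inside 39, 69 and 25 members in S2 CLAMP and inside 79 and 71 in Kc CLAMP, against 5 with S2 IgG and 43 with Kc IgG. Of all genes, at most 19.9% had a summit inside in an S2 CLAMP library and at most 18.6% in a Kc CLAMP library, while 2.62% did with S2 IgG and 17.2% with Kc IgG.

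The gene types differed in how often their bodies carried a peak. His1, the linker histone, had the fewest in S2 replicate 2 and in both Kc CLAMP libraries, tied with His2B in S2 replicate 1 and stood just above it in S2 replicate 3. Of 23 His1 genes, 3, 5 and 6 carried one in S2 CLAMP and 3 and 4 in Kc CLAMP, against 2 with S2 IgG and 3 with Kc IgG. The CLAMP counts for His1 thus exceeded the IgG counts by 0 to 4 genes. Of 22 His4 genes, 17, 21 and 9 carried one in S2 CLAMP and all 22 in both Kc CLAMP libraries, while S2 IgG had none and Kc IgG had 10. Of 23 His3 genes, 18, 16 and 8 carried one in S2 CLAMP and 23 and 22 in Kc CLAMP, while S2 IgG had none and Kc IgG had 9. His4 and His3, the pair that shares a promoter, were the types with no body peak in S2 IgG.

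Of the genes of the H2A-H2B dimer, His2A carried body peaks in at least as large a share of its copies as His2B in every CLAMP library. Of 20 His2A genes, 11, 20 and 7 carried a body peak in S2 CLAMP and 20 and 19 in Kc CLAMP, against 3 with S2 IgG and 11 with Kc IgG. Of 23 His2B genes, 3, 23 and 5 carried one in S2 CLAMP and 22 and 7 in Kc CLAMP, against 2 with S2 IgG and 11 with Kc IgG. The His2B counts did not follow the lines. S2 replicate 2 and Kc replicate 1 had nearly every copy, while Kc replicate 2 had fewer than the IgG library of its line.

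Within the unit, peaks covered much of His2A, of His4 and of the gap between His4 and His3 in most CLAMP libraries. They covered little of His1 and the spacer below it. Over all copies, the gap between His4 and His3 was covered to 60.6%, 69.5% and 31.0% in S2 CLAMP and to 92.9% and 56.1% in Kc CLAMP, against 0 with S2 IgG and 23.2% with Kc IgG. The His4 bodies were covered to 63.4%, 69.3% and 20.5% in S2 CLAMP and to 90.2% and 82.3% in Kc CLAMP, against 0 with S2 IgG and 31.8% with Kc IgG. Both stretches were covered more in every CLAMP library than in the IgG library of the same line. So were the His2A and His3 bodies on either side of them. The His2A bodies were covered to 29.9%, 88.4% and 23.8% in S2 CLAMP and to 86.3% and 61.4% in Kc CLAMP. Their values were 6.13% with S2 IgG and 32.8% with Kc IgG. The His3 bodies were covered to 34.5%, 26.6% and 17.0% in S2 CLAMP and to 51.1% and 43.8% in Kc CLAMP. Their values were 0 with S2 IgG and 25.6% with Kc IgG. The His2B bodies were covered to 7.23%, 85.4% and 10.3% in S2 CLAMP and to 50.4% and 18.1% in Kc CLAMP, against 2.46% with S2 IgG and 23% with Kc IgG. In S2 replicates 1 and 3 the His2B coverage was thus close to that of His1. The His3-His1 gap, the longest spacer of the unit, was covered to 8.33%, 1.34% and 7.56% in S2 CLAMP and to 0 and 2.82% in Kc CLAMP, while S2 IgG covered 0.948% and Kc IgG 0. His1 bodies were covered to 6.89%, 5.89% and 9.49% in S2 CLAMP and to 4.34% and 6.60% in Kc CLAMP, against 1.13% with S2 IgG and 5.89% with Kc IgG. For His1 the Kc CLAMP values lay on either side of the Kc IgG value.

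The His2A-His4 gap was covered in every CLAMP library and in neither IgG library. Its coverage was 9.93%, 19.6% and 5.77% in S2 CLAMP and 23.6% and 44.4% in Kc CLAMP. There the Kc values did not overlap the S2 values, a difference picked out after the values were seen and not tested. This was not particular to that gap, since the His4 and His3 bodies also had higher coverage in both Kc than in any S2 CLAMP library. The His1-His2B gap went the other way, with 1.72%, 30.5% and 6.29% in S2 CLAMP and 0 and 0.766% in Kc CLAMP. At the remaining stretches the lines overlapped. The His2B-His2A gap, the other shared promoter, was covered to 0, 51.5% and 0.893% in S2 CLAMP and to 18.0% and 5.98% in Kc CLAMP, against 7.37% with S2 IgG and 20.3% with Kc IgG. At that promoter S2 replicate 2 was the only CLAMP library above the IgG library of its own line.

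**Figure D2:**
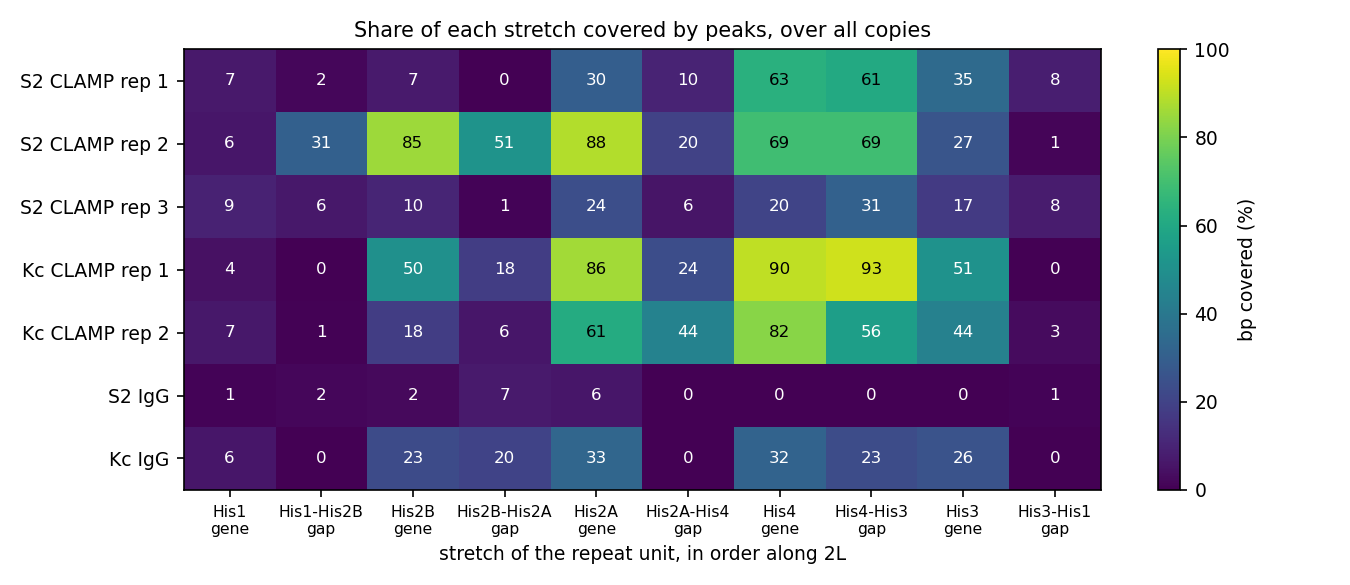
Share of the bases of each stretch of the unit that peaks covered in each library (colour and number, in %), summed over all annotated copies and ordered along 2L from left to right. The highest value, 92.9%, stands at the His4-His3 gap in Kc CLAMP replicate 1, the His2B body reaches 85.4% in S2 CLAMP replicate 2 but 7.23% in replicate 1, and the His2A-His4 gap is at 0 in both IgG libraries.

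Summits fell at recurring places of the unit, in the His2A bodies, around the His4-His3 gap and, in some libraries, in the His2B bodies. Cluster summits numbered 62, 99 and 45 in S2 CLAMP, 105 and 91 in Kc CLAMP, 7 with S2 IgG and 48 with Kc IgG. His2B bodies held 3, 24 and 4 in S2 CLAMP, 22 and 7 in Kc CLAMP, 1 with S2 IgG and 11 with Kc IgG. His2A bodies held 11, 23 and 9 in S2 CLAMP, 21 and 17 in Kc CLAMP, 3 with S2 IgG and 10 with Kc IgG. Summits in these bodies were thus not particular to CLAMP. The His3-His1 gap held 11, 2 and 6 in S2 CLAMP, 1 and 5 in Kc CLAMP, 1 with S2 IgG and none with Kc IgG. Units 19 to 21 had summits 500 to 800 bp above the lower end of His3 in S2 replicates 1 and 3. No other library had a summit at that distance in any unit. The annotated His4-His3 gap itself held 5, 11 and 5 summits in S2 CLAMP and 10 and 0 in Kc CLAMP, against 0 with S2 IgG and 2 with Kc IgG. By unit, units 4, 12 and 15 had a gap summit in the most CLAMP libraries, 4 of 5 each, and 9 of the 10 units from 13 to 22 had one in no library. Units 19 to 22 are the 4 whose annotated gap is only 25 bp, which leaves little room for a summit. Kc replicate 2, with no summit in the gap, had 22 in His4 bodies and 23 in His3 bodies. Kc IgG had 11 in His4 bodies and 11 in His3 bodies, and S2 IgG had none in either. Summits in His4 and His3 bodies were thus not particular to CLAMP either. A window from 400 bp below to 200 bp above the lower end of His3, chosen after the summits had been seen, takes in both flanks of the gap. In that window, called the promoter stretch, 20, 22 and 10 of the 23 units had a summit in S2 CLAMP and all 23 had one in both Kc CLAMP libraries. The stretch had a summit in 0 units in S2 IgG and in 10 units in Kc IgG. All 5 CLAMP libraries had a summit there in 10 units, and S2 replicates 1 and 2 both had one in 20. Units 19 to 22 each had one there in 4 CLAMP libraries.

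Summits inside the promoter stretch fell into a lower and an upper place. The lower place, 200 to 400 bp below the lower end of His3 and so mostly in the His4 body, had a summit in 13, 18 and 3 units in S2 CLAMP and in 21 units in either Kc CLAMP library. It had a summit in 0 units in S2 IgG and in 4 in Kc IgG. A further 5 units had a Kc IgG summit 400 to 500 bp below the lower end of His3, just outside this place and the promoter stretch. The CLAMP libraries had such a summit in 0, 0 and 1 units in S2 and in 1 and 1 in Kc. The Kc IgG counts at the lower place and in the stretch thus depend on where that edge was set. The upper place, within 100 bp of the lower end of His3, had a summit in 12, 16 and 4 units in S2 CLAMP and in 23 and 19 in Kc CLAMP. At the upper place neither IgG library had a summit in any unit. Like the stretch, both places were set with the summits known, so this absence is no test. In Kc IgG 4 units had a summit 100 to 200 bp below the lower end of His3, and 4 had one as far above. S2 IgG had only 7 peaks over all members. Units with a summit at both places numbered 7, 12 and 0 in S2 CLAMP and 21 and 18 in Kc CLAMP, so that S2 replicate 3 never had the pair. With peaks that overlap a peak of either IgG library left out, 7, 9 and 3 units kept a summit in the promoter stretch in S2 CLAMP and 8 and 13 in Kc CLAMP.

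**Figure D3:**
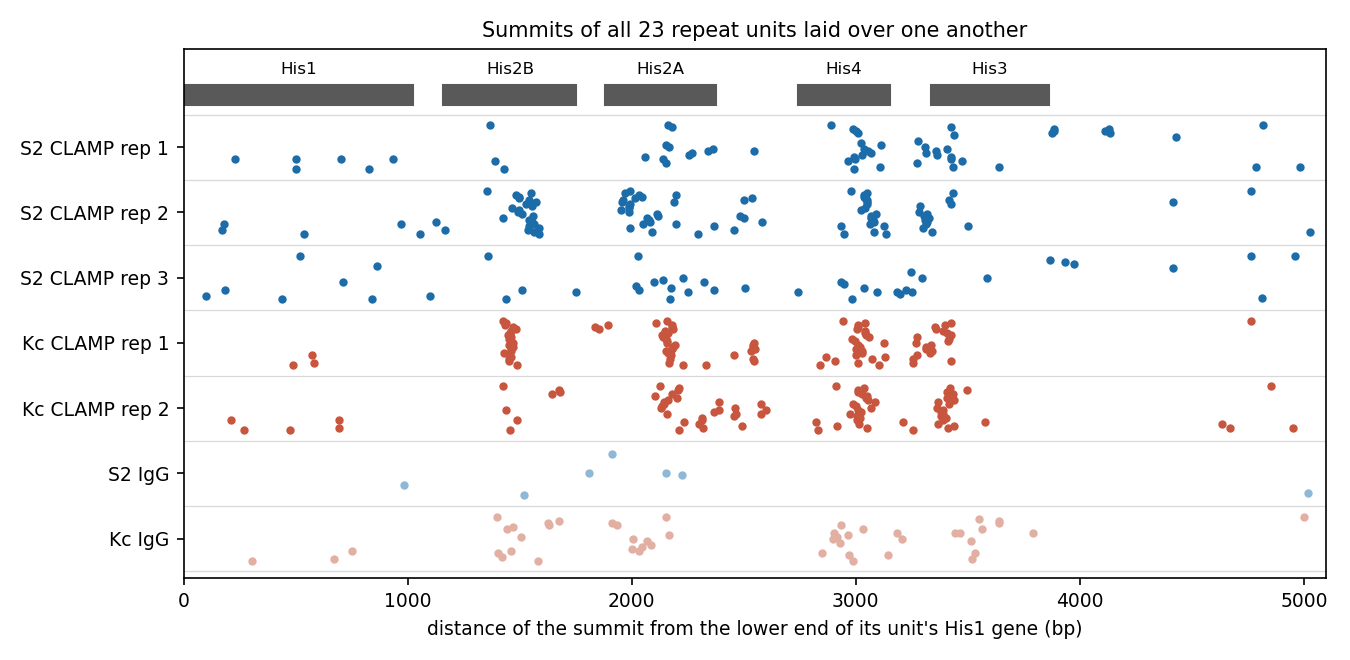
Distance of each summit from the lower end of its unit's His1 gene (horizontal axis, bp) in each library, with the 23 units laid over one another and, within a row, unit 1 lowest and unit 23 highest. Grey boxes are the genes of unit 8, and CLAMP summits gather at His4 and at the lower end of His3, where the S2 IgG row is empty.

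Units also differed in the strength of the promoter stretch, and some of the same units led in most libraries. Strength is the highest deposited fold, the authors' ratio of the signal at a summit to the background their peak caller estimated, and is used here only to rank peaks within a list. Unit 23 had 2.74, 4.76 and 1.85 in the S2 CLAMP libraries and 5.18 and 3.54 in the Kc CLAMP libraries, with no summit with S2 IgG and 2.11 with Kc IgG. Unit 5 had 3.00, 3.44 and 1.87 in S2 CLAMP and 4.69 and 2.94 in Kc CLAMP, with no summit with S2 IgG and 1.98 with Kc IgG. Chosen after the folds were seen, both units were among the 4 highest of every CLAMP library. They were also the highest units in Kc IgG, where unit 11 came next with 1.82. The 6 units that ranked highest on average over the CLAMP libraries all had a Kc IgG summit, against 4 of the other 17. The order of the units is thus partly shared with the control. Units 23 and 5 are the last unit of the cluster and the unit before the longer distance between His1 genes. Both carry a pseudogene, as do units 1 and 3, and unit 3 ranked lowest on average of all 23 units.

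Units 12 and 15 were likewise among the 6 highest units in all 5 CLAMP libraries. Unit 12 had 2.29, 3.56 and 1.79 in S2 CLAMP and 3.26 and 2.13 in Kc CLAMP, with no summit with S2 IgG and 1.71 with Kc IgG. At the other end, unit 3 had no summit in any S2 CLAMP library and 1.93 and 1.74 in the Kc CLAMP libraries. Unit 3 was the only unit held by both Kc and no S2 CLAMP library there, and no unit was held by all S2 and no Kc libraries. Across the 23 units that both lists held, Spearman's rho of the folds between the Kc CLAMP libraries was 0.733. Between S2 replicates 1 and 2 it was 0.886 across 20 units, and S2 replicate 3 gave 0.455 with replicate 1 and 0.406 with replicate 2 across 10 units. Between an S2 and a Kc library it ran from 0.532 to 0.806, the highest being that of S2 replicate 3 and Kc replicate 1 across 10 units, so that pairs within a line were not uniformly closer. These correlations describe copies that share sequence and may share reads.

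**Figure D4:**
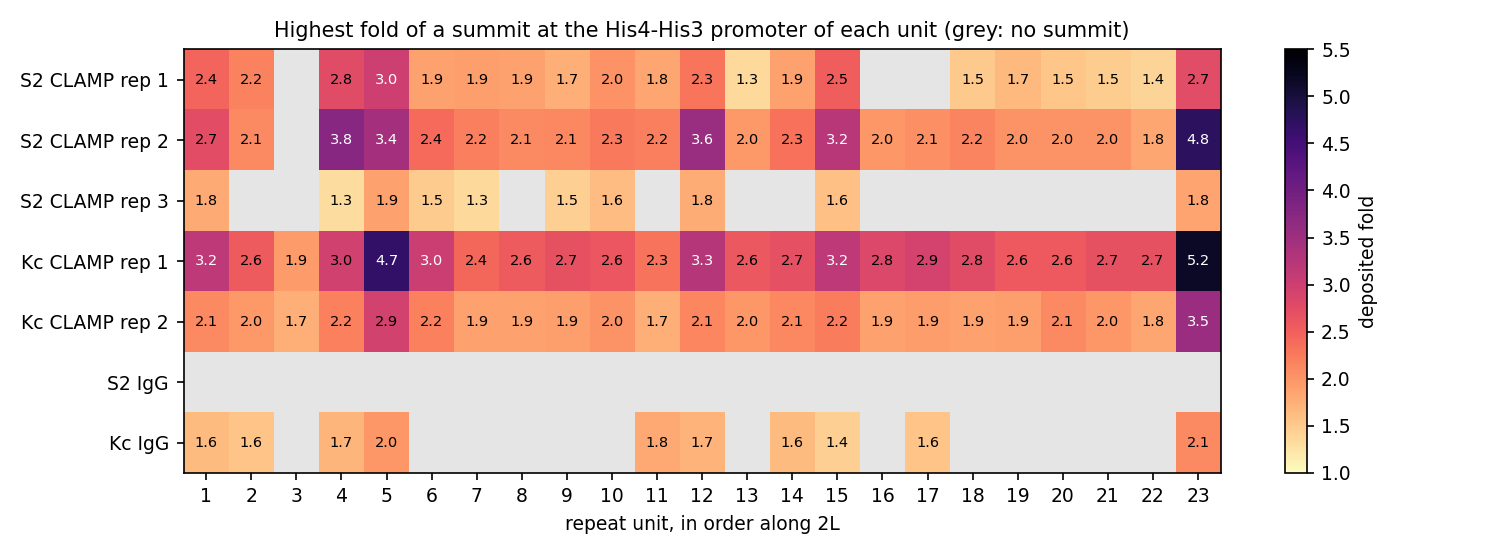
Highest deposited fold of a summit in the promoter stretch of each repeat unit (columns, in order along 2L) in each library (rows), with grey where no summit was called. Units 5 and 23 stand out in Kc replicate 1 with 4.69 and 5.18, and the S2 IgG row is empty.

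The peaks over the cluster were many but of low to middling fold within their own lists. The strongest peak over a member stood at the 65.1, 83.8 and 44.0 percentile of its list by fold in S2 CLAMP and at 98.7 and 82.6 in Kc CLAMP, against 28.3 with S2 IgG and 90.1 with Kc IgG. The median peak over a member stood at 9.59, 24.9 and 5.96 in S2 CLAMP and at 32.7 and 6.74 in Kc CLAMP, against 17.9 with S2 IgG and 16.0 with Kc IgG. In each of the 7 libraries the median lay below the middle of the list. The deposited q-values read differently. At a q-value of 0.0001 or less stood 66.0%, 92.6% and 37.8% of the member peaks in S2 CLAMP, against 75.8%, 76.4% and 32.7% of the whole lists. In Kc CLAMP the shares were 97.4% and 79.7% of the member peaks, against 53.7% and 67.1% of the whole lists. In S2 IgG none of 7 member peaks passed that threshold, and in Kc IgG 37.5% did, against 33.7% of the whole list.

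**Figure D5:**
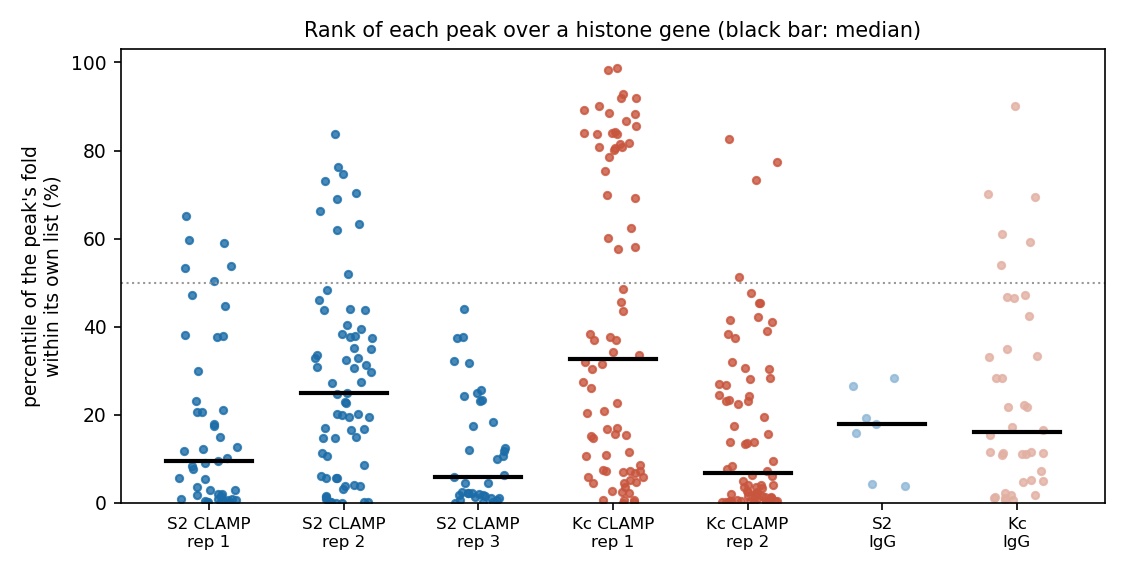
Percentile of the fold of each peak over a histone gene within its own list (points, in %), with the median as a black bar and a dotted line at the middle of the list. Medians run from 5.96 in S2 CLAMP replicate 3 to 32.7 in Kc CLAMP replicate 1, all below the dotted line.

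A larger share of the peaks over the cluster than of the whole lists overlapped IgG peaks, a difference that was not tested. Of the member peaks, 10.6%, 10.3% and 10.8% in the S2 CLAMP libraries overlapped an S2 IgG peak, against 5.54%, 5.70% and 8.20% of the whole lists. In the Kc CLAMP libraries 39 of 78 and 36 of 74 member peaks overlapped a Kc IgG peak, against 22.6% of either whole list. The Kc IgG list covered 12.3% of the cluster, and the S2 IgG list 1.33%. The part that this overlap has in the CLAMP counts was not tested. With peaks that overlap an IgG peak of either line left out, 38, 63 and 24 members still held a CLAMP peak in S2 (34.2%, 56.8% and 21.6%), against 32%, 22.8% and 14.0% of all genes under the same filter. In Kc 69 and 65 members did (62.2% and 58.6%), against 24.6% of all genes in either library. In S2 replicate 1 the members' share was then near that of all genes.

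No difference between S2 and Kc at the cluster passed its test. Members with a peak averaged 79.0 ± 28.8 over the S2 libraries (SD, n = 3) and 104.0 ± 9.90 over the Kc libraries (SD, n = 2), a difference of -25.0 (exact two-sided permutation p = 0.3). Joined peaks over the members numbered 47, 68 and 37 in S2 and 78 and 74 in Kc, so that the lines did not overlap. The counts averaged 50.7 ± 15.8 for S2 (SD, n = 3) and 76.0 ± 2.83 for Kc (SD, n = 2), with an exact two-sided permutation p of 0.2. As shares of their lists they were 0.528%, 0.773% and 0.668% in S2 and 0.793% and 0.844% in Kc. How often such counts separate the lines at other genes was not examined. Peaks covered 17.8%, 31.5% and 12.3% of the cluster in S2 and 30.2% and 25.8% in Kc, which overlap (exact two-sided permutation p = 0.5). The summits in the annotated His4-His3 gap also overlapped between the lines (exact two-sided permutation p = 0.9), as did the percentile of the strongest peak (exact two-sided permutation p = 0.3). The smallest p that 3 libraries against 2 allow is 0.1, and the lowest adjusted p over the 5 tests was 0.5 by the Benjamini-Hochberg method.

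Single S2 libraries moved these differences. Without S2 replicate 3 the difference in members was -12.0, that in joined peaks -18.5, that in coverage -3.31 points, that in gap summits 3.0 and that in the strongest percentile -16.2. Without S2 replicate 2 the difference in members was -40.5 and that in coverage -12.9 points. No member was held by all 3 S2 and no Kc CLAMP library, against 1.05% of all genes. Only His3:CG33806, in unit 3, was held by both Kc and no S2 CLAMP library, a class with 1.54% of all genes.

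The strongest members by the rule for named genes were His3 and His4 copies. His3:CG33866, in unit 23 at 2L 21541153 to 21541681, had folds of 2.74, 4.76 and 1.85 in S2 CLAMP and 5.18 and 3.54 in Kc CLAMP, against no peak with S2 IgG and 2.11 with Kc IgG. Its peak had its summit at 2L 21541164, 21541111 and 21541112 in S2 CLAMP and at 21541110 and 21541201 in Kc CLAMP, so that 3 of the 5 summits lay within the end of His-Psi:CR33867. His3:CG33812 and His4:CG33903 of unit 5 shared 1 peak in each CLAMP library. Their folds were 3.00, 3.44 and 1.87 in S2 CLAMP and 4.69 and 2.94 in Kc CLAMP, against no peak with S2 IgG and 2.01 with Kc IgG. Next in these types came His3:CG33833 and His4:CG33889 of unit 12, with the CLAMP values given for that unit, and His4:CG33905 of unit 4. His4:CG33889 also had a peak in S2 IgG, with a fold of 2.23, but only through its flank, with the summit in the His2A body. His4:CG33905 had 2.77, 3.75 and 1.32 in S2 CLAMP and 2.96 and 2.19 in Kc CLAMP, against no peak with S2 IgG and 1.70 with Kc IgG.

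Among His2A, His2B and His1 the copies of unit 6 came first by the same rule, the number of CLAMP libraries and then the mean percentile. The percentile is that of the strongest peak over the gene or its flanks. Such a peak can have its summit in a neighbouring gene. By fold, His2A:CG33832 stood above the His2A copy of unit 6 in S2 replicates 1 and 2 and Kc replicate 1, and below it in the other CLAMP libraries. His2A:CG33814, at 2L 21452934 to 21453426, had folds of 1.88, 2.80 and 2.05 in S2 CLAMP and 3.03 and 2.19 in Kc CLAMP, against no peak with S2 IgG and 1.91 with Kc IgG. Of these, 1.88, 3.03 and 2.19 had their summits in the His4 body, and 2.80 and the IgG value in the His2B body. The strongest peaks with a summit inside His2A:CG33814 had 1.82 in S2 replicate 1, 2.33 and 1.61 in Kc CLAMP and 1.75 in Kc IgG. His2B:CG33902 had 1.82, 2.80 and 2.05 in S2 CLAMP and 2.67 and 2.29 in Kc CLAMP, against 1.84 with S2 IgG and 2.13 with Kc IgG. Of these only 2.80 had its summit inside the gene. The summits of the Kc CLAMP and IgG values lay in His1, and those of 1.82 and 2.05 in His2A. His1:CG33813 had 1.73, 2.80 and 1.88 in S2 CLAMP and 2.67 and 2.29 in Kc CLAMP, against 1.84 with S2 IgG and 2.13 with Kc IgG. Here the S2 CLAMP summits lay outside the gene and the others inside it. Folds of different lists are not set against one another as amounts here, and both of the last genes held a peak in every library, IgG included. His2A:CG33832 of unit 12, His2A:CG33841 of unit 15, His2B:CG33868 and His1:CG33864 of unit 23, and His2B:CG33910 and His1:CG33801 of unit 1 also held a peak in all 5 CLAMP libraries. At the other end 12 members were held by 2 CLAMP libraries, the fewest for any member, and 11 of them were His1 genes, with His1:CG33807 the first along 2L. The other was His3:CG33806. The fewest for any His2B, His2A or His4 gene was 3 libraries, shared by 9, 5 and 3 genes, of which His2B:CG17949, His2A:CG31618 and His4:CG33907 came first along 2L.

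Histone pseudogenes at the edges of the cluster also held peaks. Below the cluster, a peak over His-Psi:CR31754 (2L 21405668 to 21405970) had folds of 2.55, 5.90 and 4.13 in S2 CLAMP and 7.62 and 5.31 in Kc CLAMP, against no peak with S2 IgG and 2.64 with Kc IgG. By fold it stood at the 54.3, 88.6 and 96.3 percentile of the S2 CLAMP lists and at 99.4 and 92.7 in the Kc CLAMP lists, against 93.6 in Kc IgG. In all CLAMP libraries but S2 replicate 1 this peak ranked above every peak over a member. The neighbouring His-Psi:CR31615 was held through the same peak. The next, His-Psi:CR31616, held peaks in S2 replicate 2 and Kc replicate 1, with folds of 2.95 and 2.55. Above the cluster, His-Psi:CR31614 (2L 21542864 to 21543688) held a peak in all 7 libraries, with folds of 2.55, 1.77 and 2.64 in S2 CLAMP and 1.33 and 3.15 in Kc CLAMP, against 2.68 with S2 IgG and 2.99 with Kc IgG. The summits of these peaks lay at different positions, from 2L 21542248 to 21543034. The next genes above it were Lamp1, held by all 5 CLAMP libraries and by neither IgG library, and the pseudogene CR42545, held by none. Inside the cluster, 20 small noncoding RNA genes lie within His2A genes and share their peaks.

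Replication-independent histone genes, which are transcribed outside S phase as well, held peaks in every CLAMP library but S2 replicate 3. Of the 6 listed genes, 4, 2 and 0 held a peak in S2 CLAMP and 2 and 2 in Kc CLAMP, against 0 with S2 IgG and 1 with Kc IgG. The shares of all genes were 33.1%, 23.9% and 15.4% in S2 CLAMP and 26.0% and 25.9% in Kc CLAMP, and with so few genes no difference from them or from the cluster was tested. His3.3B, one of the genes of the H3.3 variant, had folds of 4.79 in S2 replicate 1, 6.20 in S2 replicate 2 and 3.26 and 4.16 in Kc CLAMP, with none in S2 replicate 3 or with IgG. The peak of S2 replicate 2 lay at the other end of the gene from the rest. His4r, which encodes histone H4 outside the cluster, had 3.55 in S2 replicate 1, 2.56 in S2 replicate 2 and 2.14 and 2.26 in Kc CLAMP, with none in S2 replicate 3 or with IgG. His2Av and cid, the genes of the H2A variant and of the centromeric H3 variant, held a peak in S2 replicate 1 alone among the CLAMP libraries. No CLAMP peak was called at His3.3A or BigH1, the gene of the early embryonic linker histone.

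Genes that regulate the histone cluster or build the histone locus body were held unevenly. Of 22 listed genes with a match in the table, 14, 12 and 8 held a peak in S2 CLAMP and 11 and 13 in Kc CLAMP, against 1 with S2 IgG and 6 with Kc IgG. Of all genes, 33.1%, 23.9% and 15.4% did in S2 CLAMP and 26.0% and 25.9% in Kc CLAMP. With IgG 3.47% did in S2 and 20.2% in Kc. No difference from these shares was tested. All 5 CLAMP libraries held wge, Clamp, Trl, Trf2, Hers and Hmt4-20, and 4 listed genes were held by none. Of all genes, 6.28% were held by all 5 and 51.8% by none. Some of the genes held by all, such as Hers (X 19866146 to 19908108), are much longer than the median gene of 1710 bp. Length was not allowed for. Trl encodes GAGA factor, another protein that binds GA repeats, and had folds of 3.74, 4.56 and 2.25 in S2 CLAMP and 2.81 and 4.39 in Kc CLAMP, with no IgG peak. Trf2 encodes a TBP-related factor used at the His1 promoter, and had 5.28, 6.26 and 4.35 in S2 CLAMP and 2.89 and 7.09 in Kc CLAMP, with no IgG peak. Its strongest peak lay near the lower end of the gene in S2 CLAMP and Kc replicate 2, and inside the gene in Kc replicate 1. Hers, a repressor of histone genes, had 9.15, 10.3 and 2.93 in S2 CLAMP and 4.24 and 8.25 in Kc CLAMP, against no peak with S2 IgG and 2.10 with Kc IgG. The peaks of S2 replicate 3 and of Kc IgG lay elsewhere in the gene than those of the other libraries. The gene wge, which encodes a chromatin protein, had 4.37, 5.03 and 1.90 in S2 CLAMP and 2.24 and 1.96 in Kc CLAMP, against no peak with S2 IgG and 2.05 with Kc IgG, again at differing positions. Further genes, picked after their values were seen, encode components of the histone locus body. Mxc, encoded by mxc, is the scaffold of the body, and its gene held peaks in S2 replicate 1 and both Kc CLAMP libraries, with folds of 3.50, 2.28 and 2.01. At mute a peak was called in S2 replicate 1 alone, and at FLASH in none.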

How the data were processed

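CUT&RUN was done on equal numbers of cells with anti-CLAMP antibody or rabbit IgG, and libraries were sequenced as short paired-end reads, per the labels' protocols. FastQC, Trimmomatic, Bowtie2, MACS2 and the build dm6 are named in the submitters' processing notes, without versions or parameters. The control used in peak calling, the treatment of duplicate reads and the placing of reads that match several copies were not given by any source used here.

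The authors deposited 1 list of peaks per library in narrowPeak layout, so peaks were called per library. Each row gives a summit with its deposited fold (a ratio of signal to the caller's background), −log10 p-value and −log10 q-value, and the position of the summit. The deposited score, which restates the p-value in whole numbers, was not used. These values belong to single peaks and served only to rank and filter within a list.

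Entries that repeat an interval for several summits were counted as 1 peak, represented by the strongest. Overlap needed 1 bp. Genes came from a RefSeq table of Release 6 plus ISO1 MT, without strand or sequence, so no sequences are shown. Lines were compared by exact two-sided permutation tests over 10 splits of the 5 CLAMP libraries, 5 tests in all. The counting was checked on simulated intervals with known answers. Members and lists were chosen with earlier results of these data known. Of 23 listed regulators, 22 matched, and Hmgz did not. Named members were, per type, the 3 held by the most CLAMP libraries (then by mean percentile) and the 1 held by the fewest. Neighbours were the 3 nearest genes to either side and the other genes inside the cluster. Named regulators were those held by all CLAMP libraries or by 1 line alone, and named units those with a gap summit in the most libraries. Other genes and units were named after their values were seen. Work was done in Python 3.11.15 with numpy 2.4.6 and pandas 2.3.3.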

Additional observations from a re-analysis of the deposited data

How the results depend on the processing

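The 5 differences between S2 and Kc were recomputed with q-values at or below 0.0001, equally long lists, IgG-overlapping peaks left out, each library left out, the replicate block and, where they apply, other flanks and summit rules. Those in members, joined peaks, coverage and strongest percentile kept their sign under every alternative run, with members between -40.5 and -12.0 and none of the p-values below 0.2. The difference in gap summits, 2.0, ran from -3.0 to 7.0 as single libraries were left out, and was 0 without S2 replicate 2 and -3.0 without Kc replicate 2. With entries of 1 interval joined it was 3.17 (exact permutation p = 0.1, the smallest possible). In the wider promoter stretch, chosen after seeing the data, it was -18.8 (exact permutation p = 0.2). The cause was not tested. With the replicate block, which pairs replicates 1 and 2 of the lines by number, the difference in members was -12.0 and that in gap summits 3.0, and no sign changed. Same-numbered libraries deviated with a correlation of -0.0639 over 8532 genes, and the labels do not say that a number marks a shared batch. The 49 members held by every CLAMP library became 23 with q-values at or below 0.0001, 10 without IgG-overlapping peaks, 25 by gene body and, in a count added after seeing the data, 13 by a summit in the body. They ranged from 49 to 73 as single libraries were left out. Depth is unknown, so a missing peak does not show that CLAMP was absent.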

Other observations

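Between units 5 and 6 a stretch of 10.3 kb without annotated genes (2L 21440716 to 21451051) held 6 summits, in 4 of the CLAMP libraries and in neither IgG library. All 6 lay 109 to 559 bp below the His1 gene of unit 6, and none lay in the rest of the stretch. The S2 IgG list held a peak at mxc with a deposited fold of 29.9, at the 82.0 percentile of that list, while no peak at mxc was called in Kc IgG. It lay at the lower end of the gene (summit X 9236913), and the CLAMP peaks lay at the upper end.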
